A study of Homo sapiens with 36 samples.

Results

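Drug efflux transporters of the ATP-binding cassette (ABC) family were examined by their mRNA counts in 3 B-cell lines treated with anti-leukaemic drugs. The 8 genes ABCB1, ABCB4, ABCC1, ABCC3, ABCC4, ABCC5, ABCC10 and ABCG2 were chosen by symbol, all 8 were listed, and they are 8 of the 37549 genes counted. RNA sequencing was carried out on the B lymphoblastoid leukaemic lines MEC1, in which p53 is mutated, and JVM2 and EHEB, in which it is wild-type. Cells received the vehicle dimethyl sulphoxide (DMSO), 50 µM fludarabine (a purine analogue), 5 µM ibrutinib (an inhibitor of Bruton tyrosine kinase) or 10 µM idelalisib (an inhibitor of phosphatidylinositol-3-kinase δ), with 3 libraries in each of the 12 groups. MEC1 cells were exposed for 48 h, JVM2 for 72 h and EHEB for 96 h, so that line and time cannot be told apart. Each line stands for 1 culture model. The labels speak of treatment in triplicate but not of separately grown cultures, and the study's methods speak of independent experiments for its results in general without naming these libraries, so that p values are taken here to measure the spread between libraries, which may be technical.

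ABC transporters are membrane proteins that use the energy of ATP to move substrates out of the cytoplasm, and those of the B, C and G subfamilies carry many drugs out of cells. ABCB1 (P-glycoprotein) exports bulky hydrophobic drugs, ABCG2 (breast cancer resistance protein) works as a dimer, and the ABCC members (multidrug resistance proteins) mostly export organic anions, among them conjugates with glutathione or glucuronic acid. In leukaemic cells these proteins are known for lowering the intracellular level of cytotoxic drugs.

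Total counts per library ran from 26590705 to 53538925 (median 42114145.5). Small counts piled up at multiples of about 2.66, so that 1 sequenced fragment stands for about 2.66 counts, and a group with 0 counts in its 3 libraries may still hold up to 3 fragments, or 8 counts, by counting error alone. The 6 B-cell markers (MS4A1, CD79A, CD79B, PAX5, CD22 and BLK) were at 1 CPM (counts scaled to library size with TMM factors, the trimmed mean of M-values, on 1 scale over all libraries) or more in every group, and their summed level ran from 649 to 1967 CPM. The 4 T-cell markers summed to at most 3.55 CPM in MEC1 and 0.520 CPM in JVM2 but to 3.45 to 15.7 CPM in EHEB, from CD2 and CD3E, with CD3D and CD3G near 0. The 4 myeloid markers summed to at most 5.88 CPM, the erythroid HBB to 0.0906 and the epithelial EPCAM to 1.78. GNLY and NKG7, markers of natural killer cells, summed to 35.6 to 55.7 CPM in MEC1 and to at most 3.93 in the other lines, and the stromal COL1A1 ran from 0.751 to 25.5 CPM. Libraries are named by line and number. Libraries with DMSO and fludarabine are numbered from MEC1_37, JVM2_85 and EHEB_133 and those with the kinase inhibitors from MEC1_184, JVM2_232 and EHEB_280, and with no DMSO library in the later numbers an effect of an inhibitor and one of the numbering series cannot be told apart.

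The genes lie on 7 chromosomes of GRCh38, and only ABCB1 and ABCB4 are neighbours, on the minus strand at chr7:87503017-87713323 and chr7:87401696-87480435. ABCC1 lies at chr16:15949138-16143257 (plus strand), ABCC3 at chr17:50634777-50692253 (plus), ABCC4 at chr13:95019835-95301475 (minus), ABCC5 at chr3:183919934-184017939 (minus), ABCC10 at chr6:43427366-43450427 (plus) and ABCG2 at chr4:88090150-88231628 (minus). ABCB1 and ABCB4 are related in sequence. Of the 6508 distinct stretches of 50 bases in annotated ABCB1 transcripts, 119 (1.83%) also occur in ABCB4, so that few reads could be counted for the wrong one of the pair. RUNDC3B overlaps ABCB1 on the opposite strand, but their transcripts share no stretch of 50 bases. DLK2 overlaps ABCC10 and shares 27 of its 8283 stretches (0.326%).

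RefSeq promoter sequences (GRCh38.p14) matched 5 of the 8 genes, with 11 start sites, and ABCB4, ABCC1 and ABCC3 had none in the table. The 250 bases upstream of a start are shown for 4 genes that changed with drugs in several lines, chosen after their values were seen, read 5′ to 3′ on the gene's strand: ABCB1 at its inner start (chr7:87600885-87601134, minus), ABCC4 (chr13:95301452-95301701, minus), ABCC5 (chr3:184017885-184018134, minus) and ABCC10 (chr6:43427613-43427862, plus). Capitals mark matches, on either strand, to GGGCGG (GC box), CCAAT (a motif of NF-Y), CACGTG (E box), TGACNNNGC (core of the antioxidant response element), TATAAA and GCGTG (core of hypoxia and dioxin response elements). No 2 matches overlap in these windows.
ABCB1: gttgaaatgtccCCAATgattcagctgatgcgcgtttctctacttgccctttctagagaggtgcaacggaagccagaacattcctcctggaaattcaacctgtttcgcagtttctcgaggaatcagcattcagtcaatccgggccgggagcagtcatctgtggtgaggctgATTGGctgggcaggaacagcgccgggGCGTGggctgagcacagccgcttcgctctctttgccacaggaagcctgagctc
ABCC4: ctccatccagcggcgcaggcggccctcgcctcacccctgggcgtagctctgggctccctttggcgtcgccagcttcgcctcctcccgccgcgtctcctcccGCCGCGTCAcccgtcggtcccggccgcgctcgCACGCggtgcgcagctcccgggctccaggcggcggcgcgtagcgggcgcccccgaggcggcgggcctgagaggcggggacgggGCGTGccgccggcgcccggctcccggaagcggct
ABCC5: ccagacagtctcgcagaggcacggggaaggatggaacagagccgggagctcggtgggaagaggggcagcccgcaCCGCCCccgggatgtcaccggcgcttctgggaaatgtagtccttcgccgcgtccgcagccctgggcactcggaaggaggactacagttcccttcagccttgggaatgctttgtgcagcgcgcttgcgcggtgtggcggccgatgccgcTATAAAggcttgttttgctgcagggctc
ABCC10: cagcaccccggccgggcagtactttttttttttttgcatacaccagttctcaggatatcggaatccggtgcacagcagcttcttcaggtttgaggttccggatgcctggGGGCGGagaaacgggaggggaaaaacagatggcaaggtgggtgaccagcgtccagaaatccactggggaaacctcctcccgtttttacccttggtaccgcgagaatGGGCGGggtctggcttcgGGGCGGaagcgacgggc

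The ABCB1 window held 2 CCAAT motifs and 1 GCGTG, the ABCC4 window 1 TGACNNNGC and 2 GCGTG, the ABCC5 window 1 GC box and 1 TATAAA, and the ABCC10 window 3 GC boxes. ABCB1 and ABCC10 each have another start in the table, not printed. The window of the outer ABCB1 start (chr7:87713296-87713545) held none of the motifs, and that of the other ABCC10 start (chr6:43427291-43427540) held no GC box but 1 CACGTG, 1 TGACNNNGC, 1 TATAAA and 2 GCGTG. Of 34943 promoter windows of this length, 42.5% held a GC box, 32% CCAAT, 6.32% CACGTG, 10.9% TGACNNNGC, 10.8% TATAAA and 32.2% GCGTG. ABCC4 had 42 CpG dinucleotides and a GC content of 80.4%, a CpG count above that of 98.6% of all windows, whereas ABCB1 had 12 CpG and 55.6% GC, near the medians of 11 and 58%. The matches describe letters in these windows and not sites in use.

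In DMSO-treated cells ABCC1, which exports glutathione conjugates and leukotriene C4, had the highest level of the 8 genes in each line, followed by ABCC4, which carries cyclic nucleotides and nucleotide analogues. Levels were set side by side as CPM per kb of annotated exons. ABCC1 stood at 17.97 ± 0.995 CPM per kb (SD, n = 3) in MEC1, 17.1 ± 0.591 in JVM2 and 24.0 ± 0.515 in EHEB. ABCC4 stood at 8.61 ± 0.150, 7.52 ± 0.838 and 8.92 ± 0.384 CPM per kb. ABCC1 made up 59.0% of the summed level of the 8 genes in MEC1 and ABCC4 28.2%. The libraries of neighbours in the order did not overlap down to ABCC4 in any line. In MEC1 the order went on with ABCB1 (1.20 ± 0.0459 CPM per kb), ABCC5 (1.04 ± 0.103), ABCC10 (0.969 ± 0.127), ABCB4 (0.596 ± 0.0752), ABCG2 (0.0748 ± 0.0242) and ABCC3 (0.0156 ± 0.00941), where ABCC5 and ABCC10 did not differ beyond their spread. In JVM2 ABCC5 (1.55 ± 0.0547), ABCC10 (1.503 ± 0.163) and ABCB4 (1.34 ± 0.0364 CPM per kb) overlapped with their neighbours, ABCC3 stood at 0.103 ± 0.0282, and ABCB1 and ABCG2 had no count in any DMSO library. In EHEB ABCC10 (2.93 ± 0.393), ABCB4 (2.105 ± 0.0669), ABCB1 (1.502 ± 0.212), ABCC5 (1.18 ± 0.103), ABCC3 (0.0414 ± 0.0150) and ABCG2 (0.00439 ± 0.00760 CPM per kb) followed, each without overlap with the next. With the longest transcript as the length, 5 of 8 ranks in MEC1 and 6 of 8 in JVM2 and in EHEB were the same.

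**Figure D1:**
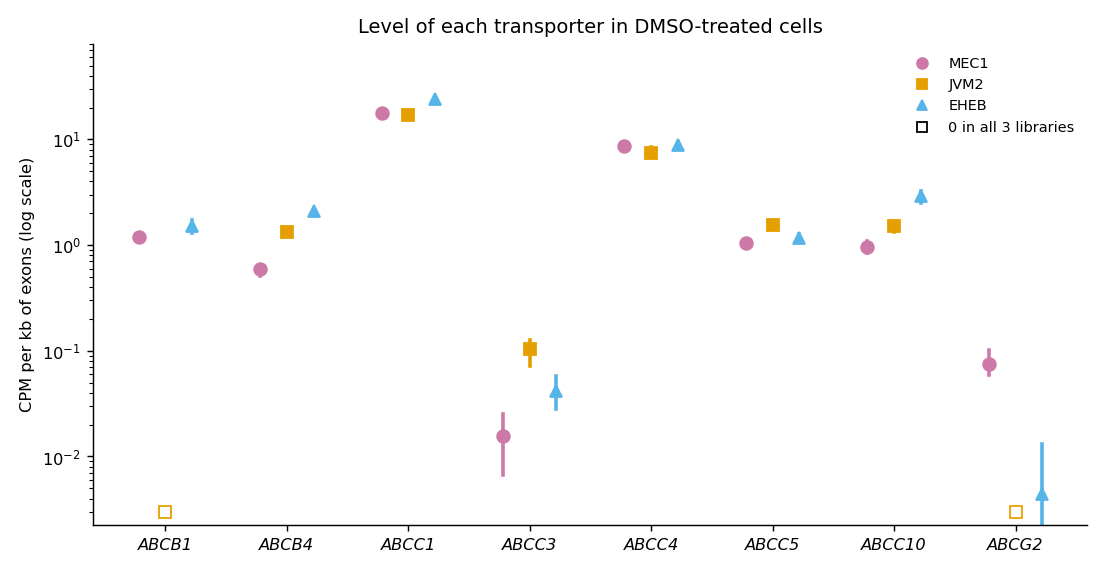
Level of each transporter in DMSO-treated cells of the 3 lines, as TMM-normalised CPM per kb of exons on a log scale. Symbols are means of 3 libraries, bars run from the lowest to the highest library, a bar that reaches the lower edge has a library at 0, and open symbols stand for 0 in all 3. ABCC1 and ABCC4 lead in each line, and ABCB1 is at 0 in JVM2 and not in the other lines.

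The lines with DMSO were then compared with each other. Between MEC1 and JVM2, 6 of the 8 transporters differed (edgeR quasi-likelihood test, Benjamini-Hochberg adjusted p under 0.05 over all genes tested), against 63.8% of all genes tested. Of these 2 were higher in MEC1 (30.1% of genes) and 4 lower (33.7%). Between MEC1 and EHEB 5 of 8 differed against 67.4%, 1 higher in MEC1 (31.6%) and 4 lower (35.8%), and between EHEB and JVM2 7 of 8 against 59.6%, 5 higher in EHEB (29.9%) and 2 lower (29.6%). The 3 comparisons share libraries with each other.

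The largest difference among the 8 was that of ABCB1. It had 973 counts over the MEC1 libraries and 1196 over those of EHEB, but 0 in each of the 3 JVM2 libraries, where 0 allows up to 0.0684 CPM. Against that limit its level was at least 113-fold higher in MEC1 (7.72 ± 0.295 CPM, adjusted p = 2.44e-07) and at least 140-fold higher in EHEB (9.64 ± 1.36 CPM, adjusted p = 3.51e-07). With the counting error of both groups, exact 95% intervals of these ratios began at 91.4 and 113.9. Between MEC1 and EHEB the libraries did not overlap, but the difference did not pass the test (log2 fold change −0.35, SE 0.145, adjusted p = 0.0698), and it passed without EHEB_135 (−0.46, adjusted p = 0.0367). ABCG2 had most of its counts in MEC1, with 14, 27 and 13 counts in MEC1, none in JVM2 and 3 counts in 1 library of EHEB. Its level in MEC1 was at least 6.25-fold that of JVM2 (adjusted p = 0.00372), or 4.57-fold at the lower end of the exact 95% interval, and the ratio to EHEB was 19.7 with an exact 95% counting interval of 3.16 to 818 (adjusted p = 0.0101).

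ABCB4, a phosphatidylcholine translocase best known from the bile canaliculus, and ABCC10, an exporter of taxanes and other lipophilic drugs, were both lowest in MEC1 and highest in EHEB. ABCB4 had a log2 fold change of −1.85 (SE 0.111, adjusted p = 6.51e-07) between MEC1 and EHEB and −1.18 (SE 0.110, adjusted p = 1.36e-05) between MEC1 and JVM2. For ABCC10 these were −1.62 (SE 0.145, adjusted p = 9.35e-06) and −0.65 (SE 0.143, adjusted p = 0.00349). Between EHEB and JVM2 they differed by 0.66 (SE 0.106, adjusted p = 0.000599) and 0.98 (SE 0.142, adjusted p = 0.000325), with no overlap of libraries. ABCC1 was higher in EHEB than in MEC1 (log2 difference of MEC1 from EHEB −0.44, SE 0.0534, adjusted p = 7.07e-05) and JVM2 (0.51, SE 0.0534, adjusted p = 4.36e-05), and ABCC5, an exporter of cyclic nucleotides, was higher in JVM2 than in MEC1 (MEC1 against JVM2 −0.59, SE 0.102, adjusted p = 0.000865) and EHEB (EHEB against JVM2 −0.38, SE 0.102, adjusted p = 0.009997).

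ABCC4 was the most even of the well-expressed genes, with group means of 64.9 to 77.0 CPM. Only EHEB against JVM2 passed the test (log2 fold change 0.26, SE 0.0814, adjusted p = 0.0208), and that was lost without EHEB_134 (adjusted p = 0.0708), JVM2_86 (0.0761) or JVM2_87 (0.0701). MEC1 against JVM2 (0.18, adjusted p = 0.0780) passed without JVM2_85 (0.27, adjusted p = 0.00644). ABCC3, an exporter of glucuronides and bile salts, was lower in MEC1 than in JVM2 (log2 fold change −2.75, SE 0.523, adjusted p = 0.00143). Its other 2 differences, at adjusted p values of 0.0373 and 0.0404, were each lost when any of 4 of the 6 libraries was left out: EHEB_133, EHEB_134, MEC1_37 or MEC1_38 (0.0655 to 0.127) and EHEB_134, EHEB_135, JVM2_86 or JVM2_87 (0.0976 to 0.131).

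Each drug was then set against DMSO in each line. The same 3 DMSO libraries serve all drugs of a line. The share of all genes tested that were called is given beside each count. In MEC1, fludarabine changed 4 of 8 transporters against 43.9% of genes. Of these 3 were higher (21.2% of genes) and 1 lower (22.7%). Ibrutinib changed 5 against 47.6%, 3 of them higher (23.7%) and 2 lower (23.9%), and idelalisib 3 against 55%, 2 of them higher (27.6%) and 1 lower (27.4%). In JVM2, where ABCG2 was too low to be tested, fludarabine changed 5 of 7 against 47.2%, 3 of them higher (23.9%) and 2 lower (23.3%). Ibrutinib changed 4 against 29.4%, all higher (14.5%, with 15% of genes lower), and idelalisib 6 against 44.2%, 5 of them higher (21.6%) and 1 lower (22.6%). In EHEB, where ABCG2 was not tested either, fludarabine changed 5 of 7 against 37.5%. Of these 2 were higher (18.4%) and 3 lower (19.2%). Ibrutinib changed 4 against 19.7%, 3 of them higher (8.5%) and 1 lower (11.2%), and idelalisib 5 against 33.3%, 4 of them higher (15.1%) and 1 lower (18.2%). ABCC4 was called in all 9 comparisons and ABCC10 in 8, and how many of all genes were called as often was not counted.

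**Figure D2:**
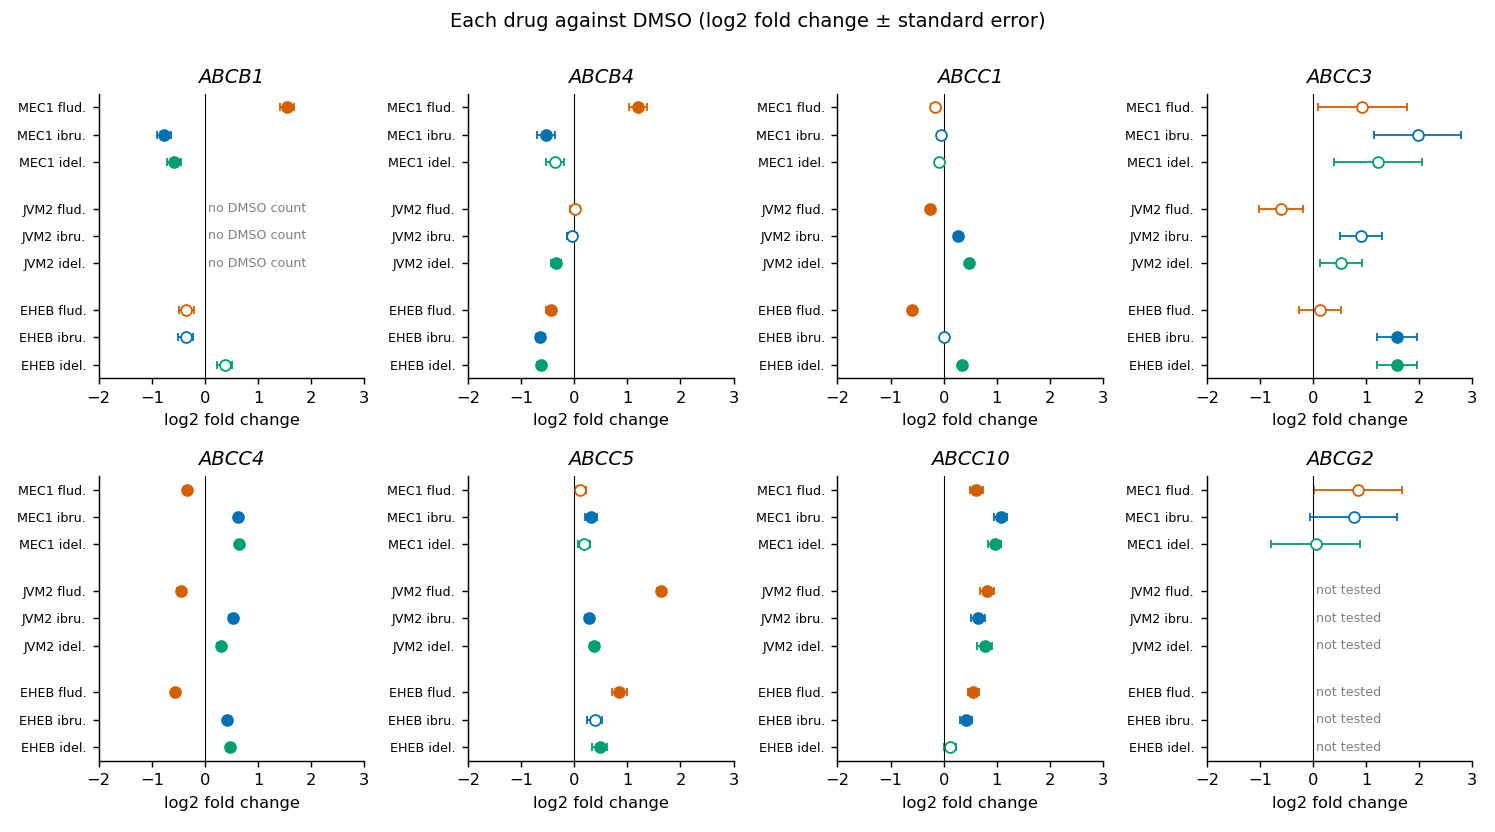
Log2 fold change of each transporter with fludarabine (flud.), ibrutinib (ibru.) or idelalisib (idel.) against DMSO in the 3 lines, with standard errors from the edgeR fit of 12 libraries per line. Filled symbols passed an adjusted p of 0.05 and open symbols did not. No value is drawn for ABCB1 in JVM2, where DMSO libraries had no count, or for ABCG2 in JVM2 and EHEB, where it was not tested. ABCC4 lies below 0 with fludarabine and above 0 with both kinase inhibitors in each line.

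ABCB1 rose with fludarabine in MEC1, and it appeared in JVM2, where no DMSO library had a count. In MEC1 it stood at 7.97, 7.39 and 7.79 CPM under DMSO, 22.9, 22.6 and 23.7 under fludarabine, 4.91, 3.73 and 4.48 under ibrutinib and 5.26, 3.91 and 5.67 under idelalisib. All fludarabine libraries lay above and all kinase inhibitor libraries below those with DMSO. The change with fludarabine was 2.93-fold (log2 fold change 1.55, SE 0.135, adjusted p = 4.77e-06), whereas ABCB1 fell by 0.78 on the log2 scale with ibrutinib (SE 0.136, adjusted p = 0.000675) and by 0.58 with idelalisib (SE 0.136, adjusted p = 0.00356). RUNDC3B, which overlaps ABCB1, had 219 to 315 counts in MEC1 with DMSO and 229 to 241 with fludarabine. With fludarabine in MEC1 the 4 myeloid markers also summed to more (4.35 to 5.88 CPM, mostly CSF1R, against 0.426 to 0.893 with DMSO, with MPO at 0 in both), as did the 4 T-cell markers (2.34 to 3.55 against 0.423 to 0.679 CPM, with CD3D and CD3G at 0 in both) and the stromal COL1A1 (10.1 to 11.4 against 1.32 to 3.10 CPM), and their part in the change was not tested.

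In JVM2 the fludarabine libraries held 23, 34 and 48 counts of ABCB1 (0.529, 0.756 and 1.13 CPM), at least 11.7-fold more than the limit set by 0 counts (9.01-fold at the lower end of the exact 95% interval, adjusted p = 0.00165). This level remained well under that of MEC1 or EHEB with DMSO. The ibrutinib libraries held 3 to 4 counts each, about 1 fragment, and did not pass the test (adjusted p = 0.0701). They passed with DESeq2 (adjusted p = 0.0282) and with a joint fit of all 36 libraries (0.00741). The idelalisib libraries held 16 counts in all, of which 13 came from JVM2_240, and overlapped with DMSO at 0. That difference had an adjusted p of 0.0293, which became 0.103 without JVM2_240 and 0.0554, 0.0640 and 0.0665 without JVM2_85, JVM2_86 or JVM2_87. RUNDC3B had 19 to 20 counts with fludarabine and 0 to 8 with DMSO in JVM2.

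In EHEB ABCB1 measured 11.03, 9.58 and 8.31 CPM under DMSO, 8.84, 7.03 and 6.69 under fludarabine, 7.11, 7.12 and 8.34 under ibrutinib and 12.2, 13.6 and 11.8 under idelalisib. The fludarabine and ibrutinib libraries overlapped with DMSO and the idelalisib libraries did not. No drug passed the test, with log2 fold changes of −0.35 (SE 0.141, adjusted p = 0.0750), −0.36 (SE 0.140, adjusted p = 0.0995) and 0.37 (SE 0.139, adjusted p = 0.0640). The first of these passed without EHEB_135 (−0.45, adjusted p = 0.0365) or EHEB_142 (−0.49, adjusted p = 0.0226), and the last without EHEB_133 (0.49, adjusted p = 0.0354). Idelalisib also passed with counts divided by 2.66 (adjusted p = 0.0439), library size scaling (0.0163), limma-voom (0.0336) and a stricter filter (0.0397).

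ABCB4, the neighbour of ABCB1, also rose with fludarabine in MEC1, but fell with it in EHEB. In MEC1 it stood at 4.89, 4.99 and 3.94 CPM under DMSO, 12.4, 9.22 and 10.8 under fludarabine, 2.86, 3.28 and 3.15 under ibrutinib and 2.73, 3.71 and 3.90 under idelalisib. The fludarabine libraries lay above all others, with a 2.30-fold change (log2 fold change 1.20, SE 0.167, adjusted p = 0.000156). With ibrutinib ABCB4 fell by 0.53 on the log2 scale (SE 0.169, adjusted p = 0.0237), a call that was lost without MEC1_37 (adjusted p = 0.0703), MEC1_38 (0.0746), MEC1_184 (0.0716) or MEC1_186 (0.0551). With idelalisib the log2 fold change was −0.36 (SE 0.169, adjusted p = 0.0955), without overlap of libraries. It passed with a joint fit of all 36 libraries (adjusted p = 0.00577) and with library size scaling (0.0444).

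In EHEB, ABCB4 measured 16.2, 15.8 and 16.8 CPM under DMSO, 12.95, 11.8 and 10.8 under fludarabine, 10.6, 10.3 and 10.5 under ibrutinib and 10.7, 10.5 and 10.5 under idelalisib. Every treated library lay under every DMSO library. ABCB4 fell by 0.44 (SE 0.0831, adjusted p = 0.00142), 0.64 (SE 0.0831, adjusted p = 0.000343) and 0.63 (SE 0.0833, adjusted p = 0.000165) on the log2 scale with the 3 drugs in this order. In JVM2 it measured 10.6, 10.1 and 10.5 CPM under DMSO, 10.5, 9.68 and 10.97 under fludarabine, 10.3, 11.3 and 8.84 under ibrutinib and 8.30, 8.30 and 7.91 under idelalisib, and only idelalisib lay apart. There it fell by 0.35 on the log2 scale (SE 0.0960, adjusted p = 0.0122), which was lost without JVM2_240 (adjusted p = 0.0533) and with library size scaling (adjusted p = 0.0638).

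**Figure D3:**
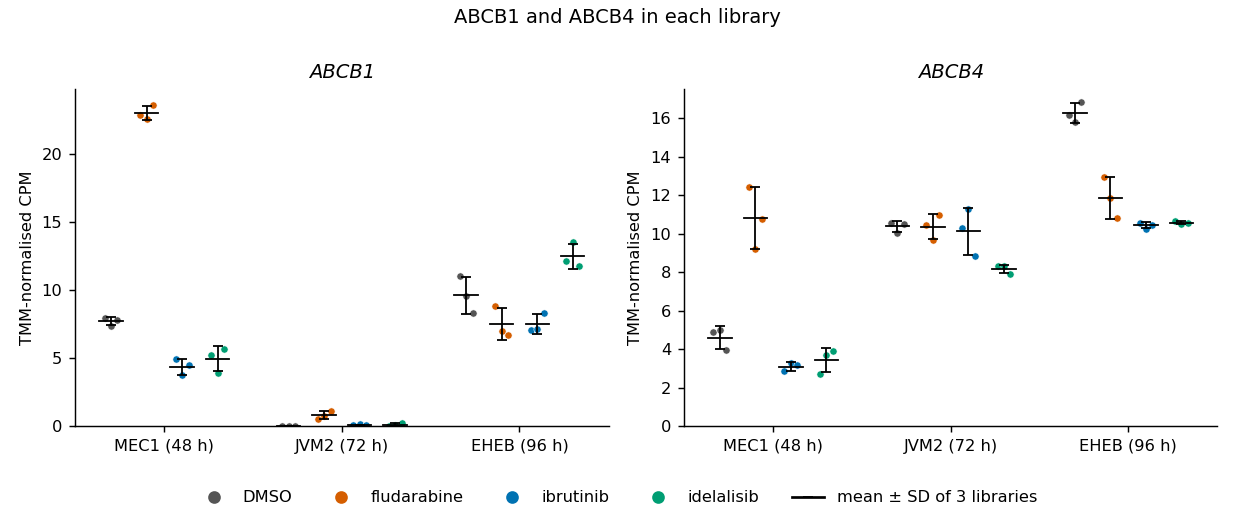
TMM-normalised CPM of ABCB1 and ABCB4 in each library of the 3 lines by treatment. Points are libraries, horizontal lines means and bars SD (n = 3). With fludarabine in MEC1 both genes lie above all other MEC1 libraries, and in JVM2 ABCB1 is at 0 with DMSO.

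ABCC1 passed the test with all 3 drugs in JVM2, with fludarabine and idelalisib in EHEB, and with none in MEC1. In MEC1 it measured 155, 166 and 149 CPM under DMSO, 132.6, 154 and 143.04 under fludarabine, 152, 142.97 and 148 under ibrutinib and 130, 152 and 145 under idelalisib. All 3 treatments overlapped with DMSO, and adjusted p values were 0.0920, 0.654 and 0.363. The first passed without MEC1_47 (log2 fold change −0.22, adjusted p = 0.0455). Idelalisib passed with a joint fit of all 36 libraries (log2 fold change −0.14, adjusted p = 0.0336).

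In JVM2 ABCC1 measured 155, 146 and 146 CPM under DMSO, 126, 120 and 125 under fludarabine, 190, 178 and 178 under ibrutinib and 202, 211 and 213 under idelalisib. No treatment overlapped with DMSO, and fludarabine lay on the other side of DMSO from the kinase inhibitors. ABCC1 fell by 0.26 with fludarabine (SE 0.0426, adjusted p = 0.000437) and rose by 0.28 with ibrutinib (SE 0.0426, adjusted p = 0.000714) and 0.48 with idelalisib (SE 0.0427, adjusted p = 6.56e-06) on the log2 scale. The fall with fludarabine was lost with library size scaling (−0.06, adjusted p = 0.347).

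In EHEB ABCC1 measured 206, 214 and 208 CPM under DMSO, 138, 140 and 136 under fludarabine, 216, 202 and 213 under ibrutinib and 262, 269 and 271 under idelalisib. Fludarabine and idelalisib lay apart from DMSO in opposite directions, and ibrutinib overlapped with it. ABCC1 fell by 0.59 on the log2 scale with fludarabine (SE 0.0412, adjusted p = 9.19e-07), rose by 0.34 with idelalisib (SE 0.0410, adjusted p = 7.55e-05) and had a log2 fold change of 0.01 with ibrutinib (SE 0.0410, adjusted p = 0.945).

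ABCC4 fell with fludarabine and rose with both kinase inhibitors in each line, and no treated group overlapped with its DMSO group. In MEC1 its libraries measured 74.5, 72.9 and 75.5 CPM under DMSO, 63.1, 59.3 and 58.0 under fludarabine, 109, 109 and 114 under ibrutinib and 109, 109 and 113 under idelalisib. The log2 fold changes were −0.34 (SE 0.0507, adjusted p = 0.000274), 0.62 (SE 0.0506, adjusted p = 2.59e-06) and 0.63 (SE 0.0507, adjusted p = 1.36e-06). With library size scaling, the median of all genes shifted by 0.25 in MEC1 with fludarabine, and the fall of ABCC4 there was −0.09 (adjusted p = 0.231).

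In JVM2 ABCC4 measured 72.9, 58.9 and 62.7 CPM under DMSO, 46.4, 46.2 and 48.0 under fludarabine, 98.5, 91.6 and 93.3 under ibrutinib and 78.9, 77.2 and 85.8 under idelalisib. JVM2_85 was the highest of the DMSO libraries and still lay under those of the kinase inhibitors. The log2 fold changes were −0.46 (SE 0.0760, adjusted p = 0.000504), 0.53 (SE 0.0759, adjusted p = 0.000451) and 0.31 (SE 0.0758, adjusted p = 0.00671). In EHEB it measured 74.9, 80.8 and 75.2 CPM under DMSO, 50.7, 51.5 and 52.6 under fludarabine, 100, 103 and 107 under ibrutinib and 112, 103 and 107 under idelalisib, and the treated libraries again lay clear of DMSO. There the log2 fold changes were −0.57 (SE 0.0533, adjusted p = 9.09e-06), 0.42 (SE 0.0530, adjusted p = 0.000272) and 0.47 (SE 0.0531, adjusted p = 5.14e-05).

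The summed level of the 6 B-cell markers lay on the same side of DMSO as ABCC4 with fludarabine in each line. It was 1054 to 1114 CPM with DMSO and 921 to 944 with fludarabine in MEC1, 1296 to 1315 and 649 to 721 in JVM2, and 1749 to 1813 and 916 to 1024 in EHEB. With the kinase inhibitors it was 1603 to 1866 CPM in MEC1 and 1492 to 1616 in JVM2, above DMSO. In EHEB it was 1728 to 1913 CPM with ibrutinib, which overlapped with DMSO, and 1888 to 1967 with idelalisib, which did not. The group means of single markers did not all move with the sum. With fludarabine MS4A1 rose in MEC1, while all 6 markers fell in JVM2 and EHEB. With ibrutinib all 6 rose in MEC1, but CD79B fell in JVM2, and CD79A, CD79B and CD22 fell in EHEB. With idelalisib PAX5 fell in MEC1, CD79B and CD22 in JVM2, and CD79B, PAX5 and CD22 in EHEB. COL1A1 also stood apart from DMSO in some of the treated groups. In JVM2 it was at 4.44 to 5.51 CPM with DMSO, 1.33 to 1.60 with fludarabine, 15.5 to 17.99 with ibrutinib and 20.01 to 25.5 with idelalisib, and in EHEB at 0.756 to 1.47 with DMSO, 6.89 to 9.13 with ibrutinib and 10.7 to 13.5 with idelalisib. The part of either in the changes of ABCC4 and of the other transporters was not tested. In bulk RNA, fewer cells with a transcript and less of it per cell cannot be told apart.

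ABCC5 rose most with fludarabine in JVM2 and EHEB. In JVM2 it measured 16.9, 18.03 and 17.99 CPM under DMSO, 49.9, 52.3 and 60.8 under fludarabine, 21.3, 20.5 and 22.8 under ibrutinib and 22.1, 23.7 and 23.3 under idelalisib. All treated libraries lay above DMSO and those with fludarabine far above the rest. The change with fludarabine was 3.10-fold (log2 fold change 1.63, SE 0.0819, adjusted p = 4.98e-08). With idelalisib it was 0.38 on the log2 scale (SE 0.0807, adjusted p = 0.00295), and with ibrutinib 0.28 (SE 0.0807, adjusted p = 0.0254). The last was lost without JVM2_85 (adjusted p = 0.0791), JVM2_86 (0.0536), JVM2_87 (0.0551) or JVM2_234 (0.0709).

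In EHEB ABCC5 measured 13.5, 12.1 and 14.5 CPM under DMSO, 19.4, 25.8 and 26.2 under fludarabine, 17.99, 19.6 and 14.9 under ibrutinib and 17.7, 20.9 and 17.7 under idelalisib. No treated group overlapped with DMSO, though an ibrutinib library came close to it. The log2 fold change was 0.84 with fludarabine (SE 0.141, adjusted p = 0.000667) and 0.48 with idelalisib (SE 0.141, adjusted p = 0.0216). The idelalisib call was lost without EHEB_133 (adjusted p = 0.0507), EHEB_134 (0.0743) or EHEB_287 (0.0843), whereas ibrutinib (0.39, SE 0.140, adjusted p = 0.0795) passed without EHEB_282 (0.50, adjusted p = 0.0358).

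In MEC1 ABCC5 measured 10.7, 13.04 and 11.9 CPM under DMSO, 12.4, 13.8 and 13.2 under fludarabine, 12.8, 15.3 and 14.7 under ibrutinib and 13.4, 12.1 and 13.4 under idelalisib. All treatments overlapped with DMSO. Only ibrutinib passed the test (log2 fold change 0.31, SE 0.107, adjusted p = 0.0311), which was lost without MEC1_37 (adjusted p = 0.123), MEC1_39 (0.0707), MEC1_185 (0.121) or MEC1_186 (0.0714). The log2 fold change with fludarabine was 0.11 (SE 0.107, adjusted p = 0.417), and 0.36 with library size scaling (adjusted p = 0.0163).

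ABCC10 rose with each drug in MEC1 and JVM2, and with fludarabine and ibrutinib in EHEB. In MEC1 it measured 6.82, 7.82 and 8.87 CPM under DMSO, 11.7, 11.6 and 13.4 under fludarabine, 17.7, 15.7 and 14.7 under ibrutinib and 15.9, 14.4 and 13.6 under idelalisib. The kinase inhibitor libraries lay highest and none of the treated libraries overlapped with DMSO. The changes were 1.53-fold with fludarabine (log2 fold change 0.61, SE 0.122, adjusted p = 0.00181), 2.11-fold with ibrutinib (1.08, SE 0.122, adjusted p = 2.86e-05) and 1.95-fold with idelalisib (0.96, SE 0.122, adjusted p = 4.65e-05). DLK2, which overlaps ABCC10, had 4 to 17 counts with DMSO in MEC1 and 25 to 76 with the drugs, against 290 to 934 counts of ABCC10, and its part in this change was not tested.

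In JVM2 ABCC10 measured 13.3, 12.5 and 10.7 CPM under DMSO, 19.5, 19.1 and 25.2 under fludarabine, 16.8, 19.1 and 21.8 under ibrutinib and 20.1, 21.1 and 21.2 under idelalisib. The treated groups lay together and clear of DMSO. The log2 fold changes were 0.82 (SE 0.135, adjusted p = 0.000474), 0.65 (SE 0.135, adjusted p = 0.00421) and 0.77 (SE 0.135, adjusted p = 0.000825). In EHEB it measured 26.0, 20.1 and 24.9 CPM under DMSO, 35.3, 32.9 and 35.5 under fludarabine, 29.3, 36.1 and 29.97 under ibrutinib and 24.5, 26.0 and 26.9 under idelalisib, and idelalisib alone overlapped with DMSO. The log2 fold changes there were 0.56 (SE 0.110, adjusted p = 0.00200), 0.42 (SE 0.110, adjusted p = 0.02001) and 0.12 (SE 0.110, adjusted p = 0.457). The ibrutinib call was lost without EHEB_134 (adjusted p = 0.0631) or EHEB_281 (0.0724).

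**Figure D4:**
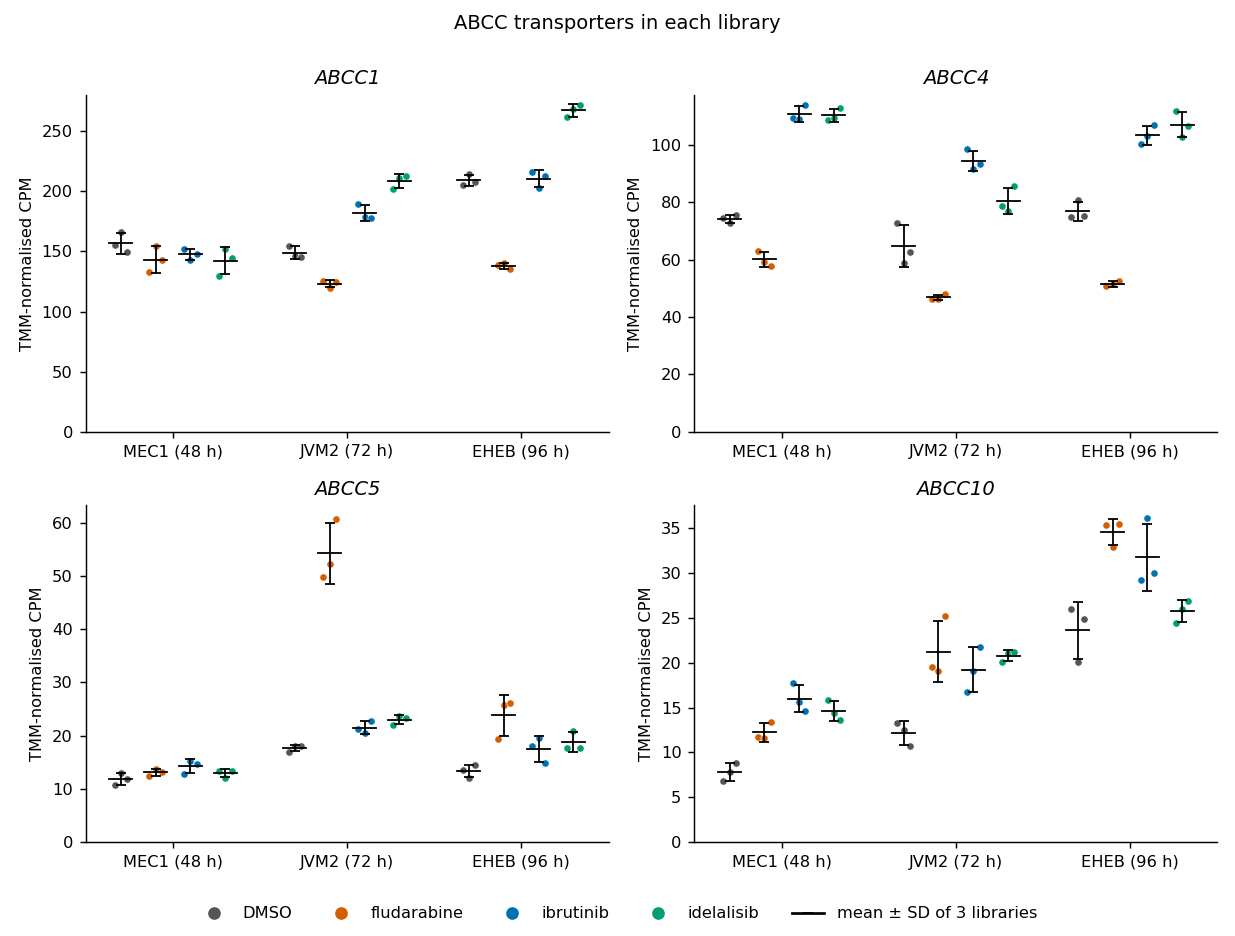
TMM-normalised CPM of ABCC1, ABCC4, ABCC5 and ABCC10 in each library of the 3 lines by treatment. Points are libraries, horizontal lines means and bars SD (n = 3). Fludarabine libraries lie under DMSO for ABCC4 in each line and far above it for ABCC5 in JVM2.

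ABCC3 and ABCG2 had few counts. ABCC3 rose in EHEB with ibrutinib (log2 fold change 1.58, SE 0.374, adjusted p = 0.0127) and idelalisib (1.58, SE 0.376, adjusted p = 0.00755). Its EHEB libraries measured 0.554, 0.369 and 0.271 CPM under DMSO, 0.429, 0.574 and 0.296 under fludarabine, 1.10, 1.20 and 1.28 under ibrutinib and 0.827, 1.12 and 1.66 under idelalisib, so that both kinase inhibitors lay clear of DMSO and fludarabine did not. In JVM2 its means were 0.994 ± 0.271 CPM under DMSO, 0.650 ± 0.410 under fludarabine, 1.88 ± 0.373 under ibrutinib and 1.45 ± 0.288 under idelalisib (SD, n = 3). In MEC1 they were 0.150 ± 0.0905, 0.284 ± 0.305, 0.565 ± 0.244 and 0.330 ± 0.205 CPM. None of these 6 comparisons passed the test (adjusted p 0.0674 to 0.402), and fludarabine in JVM2 passed without JVM2_95 (−1.23, adjusted p = 0.0167). The libraries with ibrutinib in MEC1 and with either kinase inhibitor in JVM2 did not overlap with DMSO. Ibrutinib in MEC1 (log2 fold change 1.97, SE 0.817, adjusted p = 0.0674) passed with counts divided by 2.66 (adjusted p = 0.0340), a fit of 6 libraries (0.0327) and the joint fit (0.0118). Ibrutinib in JVM2 (0.90, SE 0.395, adjusted p = 0.116) passed with a fit of 6 libraries (0.0487).

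ABCG2 in MEC1 had 14, 27 and 13 counts under DMSO, 29, 16 and 34 under fludarabine, 28, 29 and 45 under ibrutinib and 0, 38 and 17 under idelalisib. In CPM each treated group overlapped with DMSO, and the adjusted p values were 0.440, 0.471 and 0.967. In EHEB the fludarabine libraries held 6, 5 and 6 counts, about 2 fragments each, and the other 9 libraries held 6 counts in all, and in JVM2 1 library of 12 had 3 counts. These levels are near those of single fragments and were not tested.

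**Figure D5:**
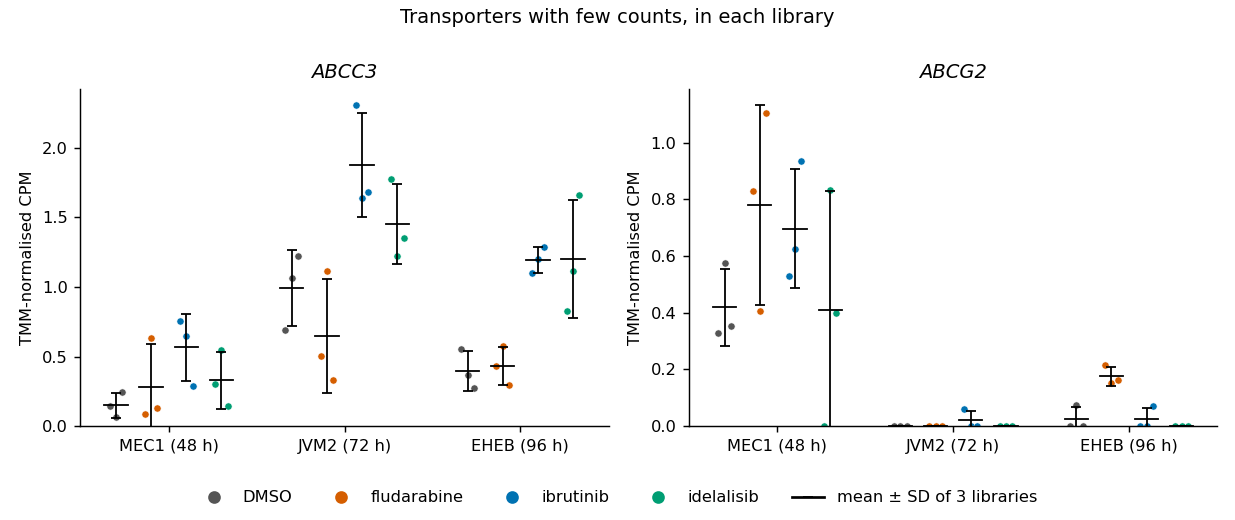
TMM-normalised CPM of ABCC3 and ABCG2 in each library of the 3 lines by treatment. Points are libraries, horizontal lines means and bars SD (n = 3, lower ends under 0 not drawn). The ibrutinib and idelalisib libraries of EHEB lie above DMSO for ABCC3, and ABCG2 is above 0 in nearly all MEC1 libraries and in few others.

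The kinase inhibitors were also compared with each other. In MEC1 none of the 8 transporters differed between idelalisib and ibrutinib in edgeR, DESeq2 or limma-voom, with a lowest unadjusted p of 0.183 in edgeR, against 15.4% of all genes tested (6.01% higher with idelalisib and 9.37% lower). In JVM2 2 of 7 differed against 18.7%, 1 higher (8.21%) and 1 lower (10.5%). ABCC1 was higher with idelalisib by 0.20 on the log2 scale (SE 0.0426, adjusted p = 0.00764), and ABCB4 was lower (log2 fold change −0.30, SE 0.0960, adjusted p = 0.0493). The ABCB4 call was lost under 8 alternatives and without JVM2_232 (adjusted p = 0.116), JVM2_233 (0.156), JVM2_238 (0.0844), JVM2_239 (0.0918) or JVM2_240 (0.131). ABCC4 was lower with idelalisib with no overlap of the libraries but did not pass the test (log2 fold change −0.22, SE 0.0756, adjusted p = 0.0651), and it passed with DESeq2 (adjusted p = 0.0481), limma-voom (0.0439), a fit of the 6 libraries (0.0345) and a joint fit of all 36 (0.00805). In EHEB 2 of 7 differed against 15.9%, both higher (6.77%, with 9.09% of genes lower). ABCB1 was 1.66-fold higher with idelalisib (log2 fold change 0.73, SE 0.140, adjusted p = 0.00493), and ABCC1 1.26-fold higher (0.34, SE 0.0410, adjusted p = 0.000265).

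Whether a drug changed a transporter differently in the 3 lines was tested as the interaction of line and drug. With fludarabine 4 of 8 transporters passed, against 39.1% of all genes tested, with ibrutinib 3 against 33.6%, and with idelalisib 3 against 45.7%. ABCB1 and ABCC1 passed with each drug, ABCB4 with fludarabine and ibrutinib, ABCC5 with fludarabine, and ABCC10 with idelalisib. The ABCB1 tests include JVM2, whose DMSO libraries held no count of it, those with ibrutinib 10 in all and those with idelalisib 16. How far the ABCB1 calls rest on JVM2 was not tested. For ABCC4 the test gave adjusted p values of 0.0639, 0.285 and 0.106. The first of these passed without JVM2_85 (0.0244) or JVM2_86 (0.0422) and the last without JVM2_86 (0.0255). With all libraries kept, the first passed with the joint fit (0.0328) and library size scaling (0.0443). The last passed with the joint fit (0.0390) and the stricter filter (0.0160). For ABCC10 with ibrutinib it was 0.0523, and left-out libraries took it to between 0.0279 and 0.0496 in 7 cases: EHEB_134, EHEB_281, JVM2_87, JVM2_232, JVM2_234, MEC1_39 and MEC1_186.

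The other 40 ABC genes, which carry lipids, peptides, haem precursors or other substrates or, as ABCE and ABCF proteins, act in translation, were counted beside these 8. With fludarabine 17 of 32 tested changed in MEC1 (13 higher, 4 lower), 26 of 38 in JVM2 (21 higher, 5 lower) and 18 of 34 in EHEB (13 higher, 5 lower), beside 43.9%, 47.2% and 37.5% of all genes tested. The median log2 fold changes were 0.58, 0.57 and 0.29 beside 0.06, 0.06 and 0.02 for all genes. Over the tested efflux transporters the medians were 0.73, 0.01 and −0.35. With ibrutinib 17 of 32 (10 higher), 11 of 38 (9 higher) and 11 of 34 (5 higher) of the other genes changed, beside 47.6%, 29.4% and 19.7% of all genes, with medians of 0.11, 0.14 and 0.07. With idelalisib it was 19 (11 higher), 17 (10 higher) and 19 (8 higher), beside 55%, 44.2% and 33.3% of all genes, with medians of 0.09, 0.19 and 0.04. Over the efflux transporters the medians were 0.47, 0.53 and 0.39 with ibrutinib and 0.12, 0.48 and 0.37 with idelalisib. Of all genes tested, 21.2%, 23.9% and 18.4% were called higher with fludarabine in MEC1, JVM2 and EHEB. These shares were 23.7%, 14.5% and 8.5% with ibrutinib and 27.6%, 21.6% and 15.1% with idelalisib.

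Some of these genes changed with each drug in a line. In MEC1 ABCA6, of the lipid transporter subfamily, stood at 2.15 ± 0.661 CPM under DMSO, 11.6 ± 0.649 under fludarabine, 20.1 ± 0.823 under ibrutinib and 19.99 ± 0.459 under idelalisib (SD, n = 3, largest adjusted p = 1.61e-06). ABCA1, the cholesterol exporter, stood at 3.96 ± 0.193, 9.68 ± 0.579, 7.09 ± 0.221 and 6.76 ± 0.274 CPM (largest adjusted p = 2.52e-05). In JVM2 the peroxisomal fatty acid transporter ABCD2 rose from 16.8 ± 3.37 CPM to 30.9 ± 1.69, 40.7 ± 0.646 and 43.1 ± 1.87 (largest adjusted p = 8.47e-05). In EHEB ABCA4 rose from 0.283 ± 0.107 CPM to 3.51 ± 0.916, 1.31 ± 0.372 and 5.44 ± 0.683 (largest adjusted p = 0.000801), and ABCA10 from 1.94 ± 0.328 to 4.09 ± 0.562, 3.29 ± 1.05 and 4.59 ± 0.281 CPM (largest adjusted p = 0.0457).

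Between the lines with DMSO, 22 of 32 of the other ABC genes differed for MEC1 against JVM2 (5 higher in MEC1), 28 of 32 for MEC1 against EHEB (8 higher in MEC1) and 21 of 32 for EHEB against JVM2 (16 higher in EHEB), beside 63.8%, 67.4% and 59.6% of all genes tested. The shares of all genes called higher were 30.1%, 31.6% and 29.9% in the same comparisons. ABCA12, a lipid transporter of the skin, stood at 0.109 ± 0.0617 CPM in MEC1, 517 ± 7.12 in JVM2 and 840 ± 34.5 in EHEB. ABCC9, a subunit of potassium channels, had no count in MEC1 with DMSO, 1.75 ± 0.102 CPM in JVM2 and 42.1 ± 0.378 in EHEB. ABCG1, a cholesterol exporter, stood at 19.5 ± 1.43 CPM in JVM2 and 3.73 ± 0.563 in EHEB.

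The counts of 21 transcription factors and their partners known to act on ABC promoters are given beside the share of all genes tested. In MEC1 9 of 21 changed with fludarabine (43.9% of all genes), 6 of them lower (22.7%), with ibrutinib 13 (47.6%), 11 lower (23.9%), and with idelalisib 12 (55%), 11 lower (27.4%). In JVM2 10 of 21 changed with fludarabine (47.2%), 7 lower (23.3%), with ibrutinib 5 (29.4%), 3 lower (15%), and with idelalisib 9 (44.2%), 6 lower (22.6%). In EHEB 10 of 20 changed with fludarabine (37.5%), 5 lower (19.2%), with ibrutinib 4 (19.7%), 3 lower (11.2%), and with idelalisib 5 (33.3%), 4 lower (18.2%). Their median log2 fold changes with the 3 drugs were −0.11, −0.41 and −0.65 in MEC1, −0.16, −0.16 and −0.18 in JVM2 and −0.15, −0.02 and 0.01 in EHEB, beside 0.06, 0.06 and 0.08, 0.06, −0.0014 and 0.03, and 0.02, 0.01 and 0.01 for all genes. In MEC1 SP1, which binds GC boxes, fell from 118 ± 12.5 CPM to 77.5 ± 7.96, 92.0 ± 9.19 and 71.2 ± 3.16 with fludarabine, ibrutinib and idelalisib (largest adjusted p = 0.0158), and the liver X receptor NR1H2 from 46.6 ± 4.19 to 33.3 ± 2.63, 29.9 ± 3.39 and 26.95 ± 3.21 CPM (largest adjusted p = 0.00244). In JVM2 NR3C1, the glucocorticoid receptor, fell from 1321 ± 57.6 CPM to 662 ± 37.8, 1115 ± 28.6 and 1009 ± 40.8 (largest adjusted p = 0.00299). In EHEB FOXO1 fell from 278 ± 17.3 CPM to 210 ± 3.80, 213 ± 9.24 and 158 ± 3.87 (largest adjusted p = 0.000468), and the dioxin receptor AHR from 156 ± 2.27 to 128 ± 1.39, 126 ± 5.31 and 124 ± 3.997 CPM (largest adjusted p = 0.000709).

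Genes of glutathione synthesis and conjugation, which supply substrates of ABCC transporters, changed in both directions. Of 18 tested in MEC1, 10, 10 and 11 changed with fludarabine, ibrutinib and idelalisib (5 higher in each case), beside 43.9%, 47.6% and 55% of all genes tested. In JVM2 11, 6 and 8 of 18 changed (4, 3 and 2 higher), beside 47.2%, 29.4% and 44.2%, and in EHEB 9, 6 and 8 of 17 (5, 4 and 4 higher), beside 37.5%, 19.7% and 33.3%. Their median log2 fold changes were 0.31, −0.19 and 0.03 in MEC1, −0.07, 0.03 and −0.19 in JVM2 and 0.15, −0.02 and −0.15 in EHEB, to be read beside the same medians of all genes. SLC7A11, the cystine carrier that feeds glutathione synthesis, rose from 21.1 ± 6.91 CPM to 30.3 ± 1.86, 44.9 ± 1.88 and 39.7 ± 2.61 in JVM2 (largest adjusted p = 0.0417) and from 17.3 ± 1.00 to 30.3 ± 1.82, 36.1 ± 1.03 and 23.9 ± 1.03 in EHEB (largest adjusted p = 0.000488). GCLC, the catalytic subunit of the first enzyme of that pathway, rose in EHEB from 23.3 ± 1.73 CPM to 35.1 ± 3.28, 32.7 ± 2.55 and 39.4 ± 2.39 (largest adjusted p = 0.00322). In MEC1 the microsomal transferase MGST2 rose from 1.72 ± 0.0499 CPM to 2.93 ± 0.363, 2.45 ± 0.300 and 2.72 ± 0.356 (largest adjusted p = 0.0228), and GSR, which reduces oxidised glutathione, fell from 162 ± 11.2 to 127 ± 22.4, 122 ± 15.2 and 97.0 ± 1.39 CPM (largest adjusted p = 0.0247). In JVM2 the transferase GSTM3 fell from 9.63 ± 0.348 CPM to 6.60 ± 0.592, 6.98 ± 0.175 and 5.42 ± 0.180 (largest adjusted p = 0.00200).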

How the data were processed

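RNA was sequenced in 36 libraries of 3 B-cell lines. Reads were trimmed, aligned to hg38 with HISAT2 2.1 and summed over transcripts with StringTie 1.3.4, as the submitters' processing notes and the study's methods name these tools (edgeR 3.22.5 is also named). The deposited values are expected counts per gene made by the authors, in whole numbers, with no normalisation, and the sources used here do not say whether counting used strand. The 1 entry without a symbol, with 0.00384% of counts, was left out. Small counts step by about 2.66 per fragment, so that sampling error is larger than the counts show.

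Genes passing edgeR 4.0.16 filterByExpr (minimum count 10, total 15) were fitted with TMM factors, 1 fit per line (12 libraries), 1 for DMSO (9) and 1 per drug for the interaction (18), by the quasi-likelihood F-test. P values were Benjamini-Hochberg adjusted over all genes tested (17394 to 19286), and genes under 0.05 were called. SEs are the log2 fold change over the root of F. Printed CPM share 1 TMM scale over all libraries. Log2 fold changes are as the fits gave them, and the log2 CPM set against other genes for likeness used a prior count of 2. Lower bounds against 0 counts set the other group's level over 8 counts in the group at 0, and so leave out the counting error of the other group. The exact intervals are binomial over fragments of both groups. Intervals and bounds cover counting error only. Alternatives were DESeq2 1.42.0, limma-voom (limma 3.58.1), other scalings, filters and sample sets, each library left out, and, chosen after seeing the data, counts divided by 2.66. Scripts were tested on simulated data (R 4.3.3, Python 3.11.15).

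The transporters and gene lists were chosen with earlier results of these data known. Beside the 8 transporters, at most 2 genes of each list were named per line, called in the same direction with all 3 drugs and whose mean log2 CPM was 1 or more, ranked by the smallest of their 3 log2 fold changes, and 2 other ABC genes per comparison of lines by the largest change. Gene positions, exon lengths and transcripts are from the GENCODE annotation of GRCh38, and promoter windows from RefSeq (GRCh38.p14). Results that need certain genes are not reported here.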

Additional observations from a re-analysis of the deposited data

Results flagged for a closer look

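For 10 pairs of transporter and drug the change against DMSO differed among the 3 lines in the interaction test (edgeR quasi-likelihood F-test, Benjamini-Hochberg adjusted over all genes). With fludarabine these were ABCB1 (adjusted p = 1.30e-06), ABCB4 (3.38e-06), ABCC5 (1.69e-05) and ABCC1 (0.000324). With ibrutinib they were ABCB1 (adjusted p = 0.000174), ABCC1 (0.00212) and ABCB4 (0.0110), and with idelalisib ABCC1 (adjusted p = 3.33e-05), ABCC10 (0.00145) and ABCB1 (0.00708). Thus 4, 3 and 3 of the 8 transporters passed, beside 39.1%, 33.6% and 45.7% of all genes tested with fludarabine, ibrutinib and idelalisib. With fludarabine ABCB4 was higher in MEC1 (log2 fold change 1.20) and lower in EHEB (−0.44), while the log2 fold change of ABCC5 was 0.11 (MEC1), 1.63 (JVM2) and 0.84 (EHEB). In JVM2 ABCB1 had no count with DMSO, 10 with ibrutinib and 16 with idelalisib, and how far its calls rest on that line was not tested. The lines were also treated for different times, so that line and time cannot be told apart.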

How the results depend on the processing

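Of 1107 values of single transporters under alternative settings, 1038 kept their direction and their side of the threshold, 23 calls were lost and 32 were gained, most of them with the joint fit or library size scaling. Of the 23 lost, 8 were ABCB4 between the inhibitors in JVM2 (adjusted p 0.0532 to 0.102). ABCC5 with ibrutinib was lost in MEC1 with 6 libraries (0.0650), the joint fit (0.0605) and no filter (0.0933), and in JVM2 with the joint fit (0.0677), limma-voom (0.0595) and no filter (0.0516). Calls lost once were ABCC4 (0.231) in MEC1 and ABCC1 (0.347) in JVM2 with fludarabine and ABCB4 (0.0638) in JVM2 with idelalisib, all with library size scaling, ABCB1 in JVM2 with idelalisib with limma-voom (0.151), ABCC10 in EHEB with ibrutinib with 6 libraries (0.0692), ABCB1 between the inhibitors in EHEB with the joint fit (0.0655) and ABCC3 for EHEB against JVM2 with no filter (0.0643). ABCC3 for MEC1 against EHEB was lost with 6 libraries (0.0537) and no filter (0.0547). Log2 fold changes that turned sign were small or came from few counts. With library size scaling these were ABCC1 in MEC1 with fludarabine (0.0858) and ibrutinib (0.0297), ABCG2 in MEC1 with idelalisib (−0.0287), ABCB4 in JVM2 with ibrutinib (0.0306), ABCC4 for idelalisib against ibrutinib in MEC1 (−0.16) and for MEC1 against EHEB (0.0446). With the joint fit they were ABCG2 in MEC1 with idelalisib (−0.0175), ABCB4 in JVM2 with fludarabine (−0.000843) and ABCC4 for the inhibitors in MEC1 (−0.00705). With limma-voom they were ABCG2 in MEC1 with idelalisib (−1.09) and, for idelalisib against ibrutinib, ABCB1 in JVM2 (−0.24) and ABCC3 in EHEB (−0.0418). The stricter filter gave ABCC1 0.00888 in MEC1 with ibrutinib, and DESeq2 gave it −0.0029 in EHEB with ibrutinib. The joint fit called 5 transporters in MEC1 with idelalisib and 1 in EHEB for the inhibitors. In JVM2 1 was called for the inhibitors with DESeq2 size factors, fragment counts, library size scaling, no filter and the stricter filter, which left 3 called for MEC1 against EHEB. Genes called between the inhibitors in MEC1 numbered 2694, 1504 with 6 libraries and 4345 with library size scaling. With the longest transcript as length, 5 of 8 ranks in MEC1 were the same. The cause was not tested for any of these.

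With each library left out in turn, log2 fold changes with fludarabine ran from −0.48 to 1.44 for ABCC3 in MEC1, −0.0382 to 0.0585 for ABCB4 in JVM2 and −0.14 to 0.43 for ABCC3 in EHEB. With ibrutinib they ran from −0.11 to 0.0637 for ABCB4 in JVM2 and −0.0126 to 0.0372 for ABCC1 in EHEB, and with idelalisib from −0.98 to 0.60 for ABCG2 in MEC1. For idelalisib against ibrutinib they ran from −0.10 to 0.0017 for ABCC1 and −0.0326 to 0.0206 for ABCC4 in MEC1, −1.07 to 1.00 for ABCB1 in JVM2, and −0.29 to 0.21 for ABCC3 and −0.0018 to 0.19 for ABCC5 in EHEB. Transporters called ran from 3 to 4 in MEC1 with ibrutinib, where 5 were called with all libraries, and from 1 to 2 in JVM2 between the inhibitors (2 with all). They ran from 4 to 6 in JVM2 with idelalisib (6 with all) and 3 to 5 in EHEB with ibrutinib (4 with all). Between lines they ran from 4 to 6 for MEC1 against EHEB (5 with all) and 5 to 7 for EHEB against JVM2 (7 with all). Genes called between the inhibitors in MEC1 ran from 1376 to 2885.

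Library size scaling moved the median log2 fold change of all genes by 0.25 and 0.20 in MEC1 and JVM2 with fludarabine, 0.10, 0.11 and 0.10 in JVM2 with idelalisib and EHEB with fludarabine and ibrutinib, −0.17 between the inhibitors in MEC1, and 0.12 and 0.11 for MEC1 against JVM2 and EHEB. The share of higher calls went from 48.4% to 74.1% in MEC1 with fludarabine, and with fludarabine, ibrutinib and idelalisib from 50.6% to 69.1%, 49.1% to 62.2% and 48.8% to 59.5% in JVM2 and from 48.9% to 61.8%, 43.1% to 65.4% and 45.3% to 59.6% in EHEB, and from 39.1% to 11.3% between the inhibitors in MEC1. No paired analysis was possible because library numbers are not shared between groups. ABCG2 and ABCC3, and ABCB1 in JVM2, had few counts.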

Other observations

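The pattern of each transporter over the 12 groups was set against 12064 genes by Pearson's r of the mean log2 CPM, as a description over 12 points that share line, library series and depth. The genes most like ABCB1 were ZSWIM6 (r = 0.971) and DOCK5 (0.963), and those most like ABCB4 were OAS3 (0.958), an interferon-induced synthetase, and CPEB4 (0.951). ABCC1 was most like ARHGAP45 (0.944) and TUT7 (0.935), and ABCC4 most like MMD (0.943) and BLK (0.933), a B-cell kinase that is also 1 of the 6 B-cell markers. ABCC10 was most like ZNF658 (0.988) and CYP4V2 (0.968), ABCC5 most like CLUAP1 (0.918) and KPNA1 (0.911), and ABCC3 most like DENND3 (0.934) and DNM1 (0.932). ABCG2 is left out because its counts were near 0 in most groups. Group means of ABCC3 ran only from 0.150 to 1.88 CPM and those of ABCB1 in JVM2 from 0 to 0.807. The r values of both genes thus rest in part on groups with few counts.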
